A study of Rattus norvegicus with 3 samples.

Results

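The genes described here are 10 receptors that macrophages use to take up material from their surroundings, Mrc1, Cd163, Lyve1, Vsig4, Msr1, Marco, Folr2, Stab1, Cd36 and Cd5l, the last of which encodes a secreted protein. They were taken by symbol from 30957 genes measured in the motor cortex, and each symbol stood on 1 row. Messenger RNA was sequenced from 3 rats, males of the Sprague-Dawley strain, after cerebral ischemia with reperfusion, in which blood supply to the brain is lost and then returns. The rats are numbered 19, 35 and 70 and are all labelled 8 weeks, without a statement of whether this is an age or a time after the operation. They form 1 group, no control animals were analysed here, and the labels do not say which side of the brain was taken or how the ischemia was made. The genes were chosen by role and by their FPKM in these same rats, in which their levels and orders had been seen, so both are a description and no test was made. FPKM is the number of fragments scaled to the length of the gene and the depth of the library, and values are given for rats 19, 35 and 70 in that order.

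Perivascular macrophages lie between the vessel wall and the brain tissue. They are told apart from microglia, the macrophages within the tissue, by endocytic receptors such as the mannose receptor Mrc1, the hemoglobin receptor Cd163 and, in part of them, the hyaluronan receptor Lyve1. Scavenger receptors are a loose group of unrelated proteins that bind modified lipoproteins, dead cells, bacteria and other polyanionic or lipid ligands. Macrophages that enter from the blood, liver macrophages and some endothelial cells carry several of them too, so none of these genes marks 1 cell type by itself. In bulk tissue, fewer cells of a type and less RNA per cell cannot be told apart.

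The promoters of 4 members are shown because they stand at the ends of the patterns below: Vsig4 had the widest range between rats, Cd163 an order of its own, and Mrc1 and Stab1 each held 2 matches to the motif of PU.1, the transcription factor of the macrophage lineage. Each sequence runs 5′ to 3′ on the gene's strand, from 250 bases before the gene's start to 50 bases from it onward (RefSeq, build GRCr8), with GAGGAA or its reverse complement in capitals. They lie at chrX:65179659-65179958 (minus strand) for Vsig4, chr4:158770524-158770823 (plus) for Cd163, chr17:82157475-82157774 (plus) for Mrc1 and chr16:6367310-6367609 (minus) for Stab1.
Vsig4: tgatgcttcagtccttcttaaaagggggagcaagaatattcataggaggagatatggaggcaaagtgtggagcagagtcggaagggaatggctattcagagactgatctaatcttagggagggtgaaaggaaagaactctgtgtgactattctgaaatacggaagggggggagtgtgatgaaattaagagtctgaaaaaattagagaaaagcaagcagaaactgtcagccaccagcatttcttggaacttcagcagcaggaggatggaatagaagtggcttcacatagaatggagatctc
Cd163: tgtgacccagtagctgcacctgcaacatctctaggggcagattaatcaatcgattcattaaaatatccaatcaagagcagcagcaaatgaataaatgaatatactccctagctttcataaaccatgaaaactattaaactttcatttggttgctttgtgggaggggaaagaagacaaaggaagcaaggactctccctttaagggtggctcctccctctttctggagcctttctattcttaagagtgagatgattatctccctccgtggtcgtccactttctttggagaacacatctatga
Mrc1: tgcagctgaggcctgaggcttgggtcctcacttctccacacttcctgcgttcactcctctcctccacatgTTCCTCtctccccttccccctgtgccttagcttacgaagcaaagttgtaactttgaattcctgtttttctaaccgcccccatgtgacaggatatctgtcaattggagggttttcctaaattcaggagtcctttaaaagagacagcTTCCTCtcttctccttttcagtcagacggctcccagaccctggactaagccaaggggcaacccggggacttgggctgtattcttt
Stab1: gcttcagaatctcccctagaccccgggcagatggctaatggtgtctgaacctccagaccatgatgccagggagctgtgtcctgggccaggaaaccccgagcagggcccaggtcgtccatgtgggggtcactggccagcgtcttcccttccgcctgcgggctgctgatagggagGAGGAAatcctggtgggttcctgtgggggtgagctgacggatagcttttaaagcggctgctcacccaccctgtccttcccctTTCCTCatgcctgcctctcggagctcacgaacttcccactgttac
The matches begin 180 and 35 bases before the start in Mrc1, and 77 bases before and 5 bases after it in Stab1. Of the 9 members with a promoter in the table, 5 held GAGGAA on either strand (Mrc1, Stab1, Cd36, Cd5l and Marco), against 27.6% of 33469 promoters of 300 bases. The MAF half-site TGCTGA, for a pair of macrophage transcription factors, was in 4 of 9 (Vsig4, Folr2, Stab1 and Cd5l) against 18.4%. The STAT motif TTCNNNGAA was in Vsig4 alone of the 9 (8.87% of all promoters), and the STAT6 motif, with a spacer longer by 1 base, in Lyve1 alone (7.28%). TGANTCA (AP-1), TTGCNNAA (C/EBP) and AGGTCA (the nuclear receptor half-site) were in none of the 9, and in 7.33%, 10.6% and 16.2% of all promoters. These are letter matches in a short window and not binding sites.

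Of the 10 genes, 9 were above 0 and 8 of these 9 were highest in rat 35 and lowest in rat 19, with rat 70 between. Over all 14134 genes with a mean of 1 FPKM or more, 45.4% were highest in rat 35, 19.3% were lowest in rat 19 and 11.8% had this order. The exception was Cd163, which was highest in rat 70 (29.8% of all genes) and lowest in rat 35 (36.5%), an order of rat 70, 19 and 35 that 22.3% had, although its rats 19 and 35 did not differ beyond counting error. None of the 9 was highest in rat 19 (24.8%) or lowest in rat 70 (44.2%), and none had the most frequent order of rat 35, 19 and 70 (33.6%). The choice of the genes used these orders, and nothing is read from the counts. Marco was listed at 0 in every rat. Summed over the 10 genes, the level was 23.3, 176 and 44.6 FPKM. Folr2 made up 57.4%, 47.5% and 37.9% of that sum, and Vsig4 0.195%, 27.0% and 13.7%, so the makeup of the sum differed between rats as well as its size.

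**Figure D1:**
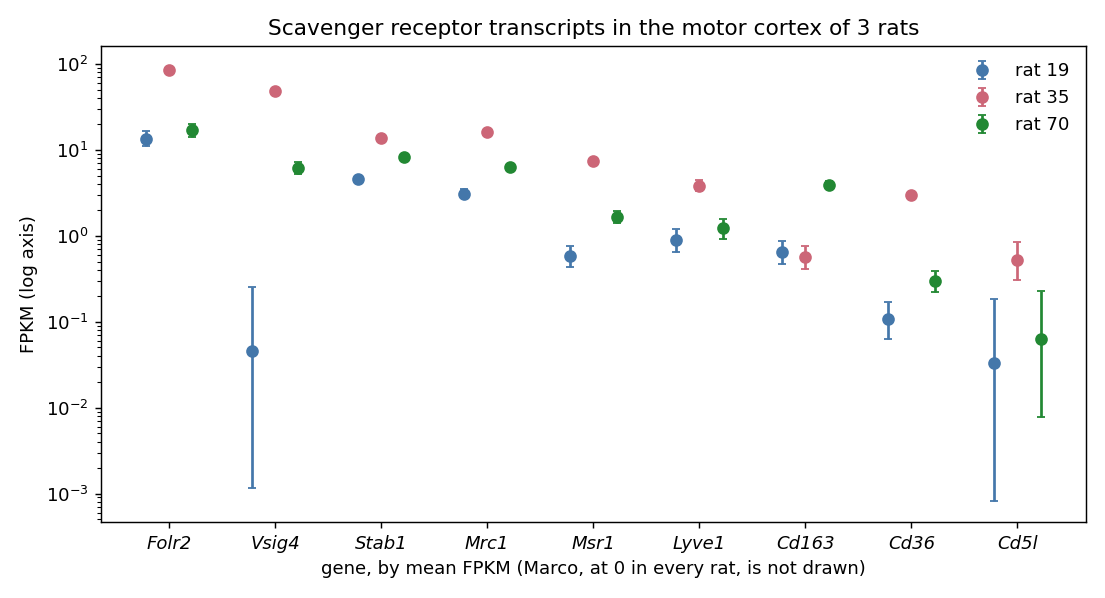
FPKM (log axis) of the 9 members above 0 in rats 19, 35 and 70, with bars for the 95% counting interval of the recovered fragments. Rat 35 is highest for 8 genes, Cd163 is highest in rat 70 at 3.88, and the point of rat 19 for Vsig4 stands for 1 fragment, the smallest number its value allows.

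The smallest numbers of fragments behind each value could be recovered, because FPKM of a gene moves in steps of 1 fragment. Only for Cd36 did a single gene length up to 20000 bp give whole fragments. For the other 8 genes above 0, longer lengths did so too, and at these the fragments would be more and the intervals narrower. This set the precision: 1 FPKM on a gene of 1 kb rested on 15.6, 16.5 and 16.0 fragments in the rats. Intervals below are 95% intervals for counting error alone, which compare these libraries and not conditions. Fragments without molecular identifiers are not independent molecules, so the true error is larger.

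Mrc1 encodes the mannose receptor, an endocytic lectin of perivascular and other resident macrophages (chromosome 17, 81352700 to 81433743, Rnor 6.0). It was at 3.08, 15.8 and 6.30 FPKM (8.41 ± 6.63, SD, n = 3), from 251, 1364 and 529 fragments. All 3 rats were apart beyond counting error: rat 35 stood 5.14-fold above rat 19 (4.49 to 5.90), and rat 70 stood 2.04-fold above rat 19 (1.76 to 2.38). Of its relatives in this lectin family, the collagen receptor gene Mrc2 was lowest in rat 70, at 14.2, 55.9 and 9.57 FPKM, and Ly75 was nearly level in rats 19 and 70, at 1.06, 2.60 and 1.11.

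Lyve1, a hyaluronan receptor of a subset of perivascular macrophages and of lymphatic endothelium (chromosome 1, 175663266 to 175676699), was at 0.896, 3.80 and 1.21 FPKM (1.97 ± 1.59, SD, n = 3). It was 4.24-fold higher in rat 35 than in rat 19 (3.04 to 6.05). Rats 19 and 70, with 43 and 60 fragments, did not differ beyond counting error at the shortest of 6 possible lengths (1.35-fold, 0.899 to 2.05). A longer length would narrow this interval. Among genes of lymphatic endothelium, Ccl21 was at 0.384 FPKM in rat 19 and listed at 0 in the other rats, Flt4 was at 1.09, 2.56 and 1.40, Pdpn, which astrocytes also express, at 58.3, 82.1 and 19.3, and Prox1, which dentate granule neurons also express, at 2.33, 1.80 and 10.2. The part of lymphatic vessels in the Lyve1 values was not tested.

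Cd163 binds the complex of hemoglobin with haptoglobin and is the antigen of the ED2 antibody for rat resident macrophages (chromosome 4, 156752082 to 156785467). It was at 0.642, 0.567 and 3.88 FPKM (1.70 ± 1.89, SD, n = 3), from 46, 43 and 287 fragments. Rat 70 was 6.05-fold above rat 19 (4.42 to 8.45) and 6.85-fold above rat 35 (4.96 to 9.67). The other rats could not be ordered, since the ratio of rat 35 to rat 19 was 0.884 (0.569 to 1.37). Cd163 was the 1 member more than 2-fold higher in rat 70 than in both other rats on the log2(FPKM + 1) scale, as were 3.81% of all genes. Its spread rested on rat 70, and without that rat the difference between highest and lowest fell from 1.64 to 0.07 (log2). Relative to Mrc1 in the same rat, Cd163 was at 20.8%, 3.58% and 61.6%.

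Genes of hemoglobin and heme handling did not share the order of Cd163. Of 8 measured genes of hemoglobin and heme clearance, 7 were highest in rat 35 (45.4% of all genes) and 7 lowest in rat 70 (44.2%). Hmox1, which encodes heme oxygenase, was at 34.7, 131 and 22.6 FPKM and the ferritin light chain gene Ftl1 at 403, 1124 and 197, while the ferritin heavy chain gene Fth1, the most abundant of the list, was at 2646, 2720 and 2428. Hp, which encodes haptoglobin, was at 4.19, 5.92 and 1.85. Transcripts of red blood cells were highest in rat 35, with the globin genes Hba1 at 19.1, 84.8 and 26.0 and Hbb at 6.52, 22.4 and 7.46.

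Vsig4 encodes the complement receptor of the immunoglobulin superfamily, which binds C3b and iC3b on particles and is typical of liver and other tissue macrophages (chromosome X, 65370851 to 65400298). It was at 0.0455, 47.5 and 6.13 FPKM (17.9 ± 25.8, SD, n = 3), from 1, 1103 and 139 fragments. Rat 35 held 88.5% of the sum over the rats, but the level in rat 70 was well measured, so the transcript was not exclusive to rat 35. In rat 19 the value was worth 1 fragment at the shortest length. The ratio of rat 35 to rat 19 was 1043 with a wide interval (187 to 41224), because so few fragments stand below the line. Rat 70 was 135-fold above rat 19 (23.8 to 5361), and rat 35 was 7.74-fold above rat 70 (6.48 to 9.30). On the log2(FPKM + 1) scale the range of 5.53 was the 5th widest of 14134 genes, and it was 2.76 without rat 19.

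Relative to Mrc1, Vsig4 stood at 1.48%, 300% and 97.4%, so the 2 receptors differed in how far they spread over the rats. Genes of the C3 pathway that Vsig4 serves had narrower ranges. Only 0.0283% of all genes tested had a wider range than Vsig4, so nothing about the pathway is read from this. C3 was at 14.1, 49.4 and 17.3 FPKM, and all 9 tested genes of the list were highest in rat 35. Itgb2 and Itgax, subunits of the other iC3b receptors, were at 27.2, 118 and 13.4 and at 2.24, 13.1 and 0.893, and had their lowest value in rat 70 and not in rat 19. Of that list, 3 of 9 were lowest in rat 19, and Cfd, the factor D gene, was at 3.33, 22.3 and 8.95.

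**Figure D2:**
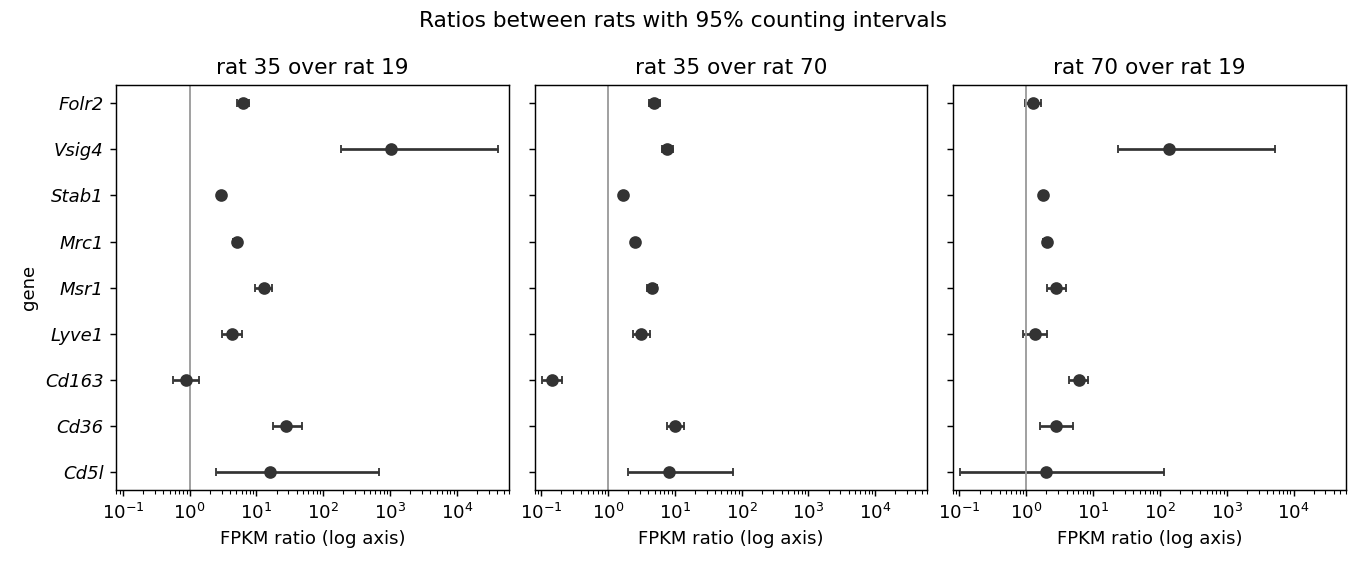
FPKM ratio (log axis) of each member between pairs of rats, with 95% counting intervals and a line at 1. For rat 70 over rat 19, at the smallest fragment numbers, the intervals of Folr2, Lyve1 and Cd5l include 1. That of Vsig4 runs from 23.8 to 5361.

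The class A scavenger receptors were Msr1 and Marco, collagen-like trimers that bind modified lipoproteins and bacteria. Msr1 (chromosome 16, 56813791 to 56900052) was at 0.580, 7.39 and 1.63 FPKM (3.20 ± 3.67, SD, n = 3), from 53, 715 and 154 fragments. It was 12.8-fold higher in rat 35 than in rat 19 (9.64 to 17.2), and rat 70 was 2.82-fold above rat 19 (2.05 to 3.93), so all 3 rats were apart. The row named Marco lies on chromosome 16 (85115201 to 85135859) and was 0 in every rat. RefSeq's GRCr8 annotation puts Marco on a different chromosome, whereas the other 9 members are on the same chromosome in both, so the row may not hold the gene. A 0 in these files can also fall on an abundant transcript: the collagen gene Col1a2 was listed at 0 in every rat, whereas Col1a1, whose product it joins in type I collagen, was at 72.8, 754 and 80.6 FPKM. The zeros therefore do not show that Marco was not expressed. Among further class A genes, Scara5, a ferritin receptor also made by fibroblasts, and Colec12, a collectin, were at 4.26, 55.1 and 7.33 and at 17.8, 47.4 and 12.5. Scara3 was instead highest in rat 19, at 35.3, 27.7 and 27.2.

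Cd36, the class B receptor for oxidized lipoproteins, fatty acids and thrombospondin (chromosome 4, 14001761 to 14249718), was at 0.107, 2.96 and 0.293 FPKM (1.12 ± 1.60, SD, n = 3), from 18, 529 and 51 fragments. It was 27.8-fold higher in rat 35 than in rat 19 (17.4 to 47.2) and 10.1-fold higher than in rat 70 (7.58 to 13.8). Of its partners in lipid handling, 11 of 11 tested genes were highest in rat 35. The fatty acid binding gene Fabp4 was at 7.20, 176 and 9.07 FPKM, the lipid droplet gene Plin2 at 28.4, 132 and 21.3, and Fabp5, the most abundant, at 214, 528 and 94.5. Only 3 of these 11 were lowest in rat 19, the rat in which Cd36 was lowest. Scarb1 and Scarb2, the other class B genes, were at 26.0, 48.5 and 10.3 and at 67.8, 125 and 104, so Cd36 had the lowest level of the 3 in each rat.

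Stab1 encodes stabilin-1, a large receptor of resident macrophages and sinusoidal endothelium that clears SPARC and modified lipoproteins (chromosome 16, 7222067 to 7250924). Levels were 4.56, 13.6 and 8.18 FPKM (8.79 ± 4.56, SD, n = 3). Rat 35 was 2.99-fold above rat 19 (2.70 to 3.31) and 1.66-fold above rat 70 (1.53 to 1.81), the smallest such excess of the 8 members highest in rat 35. With 501, 1582 and 927 fragments, all 3 rats were apart. Its relative Stab2 was at 0.034, 0.072 and 0.492 FPKM, too low for the filter and highest in rat 70.

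Folr2, folate receptor beta of resident macrophages (chromosome 1, 166915045 to 166919302), was the most abundant member, at 13.4, 83.4 and 16.9 FPKM (37.9 ± 39.4, SD, n = 3). At 99, 652 and 129 fragments, from the shortest of 42 possible lengths, rat 35 was 6.23-fold above rat 19 (5.03 to 7.77). Rat 70 was 1.26-fold above rat 19, with an interval that included 1 at this length (0.965 to 1.66). A longer length would give more fragments and a narrower interval. Whether rats 19 and 70 differ beyond counting error is therefore not settled. Folr1, the neighbouring folate receptor gene of epithelia, was at 1.57, 2.09 and 2.02. Cd5l, a secreted scavenger-related protein of liver and spleen macrophages (chromosome 2, 186685104 to 186696116), was close to the limit at 0.0327, 0.526 and 0.0635 FPKM, from 1, 17 and 2 fragments. Rats 19 and 70 could not be ordered for Cd5l, and rat 35 was 16.1-fold above rat 19 with an interval of 2.52 to 672.

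Within a rat, the order of the members by FPKM also differed. In rat 19 the highest levels were those of Folr2, Stab1 and Mrc1, the only members at 1 FPKM or more. In rat 35 there were 7 such members, led by Folr2 and Vsig4, and Cd163 was below them. In rat 70 there were also 7, with Folr2, Stab1, Mrc1 and Vsig4 between 16.9 and 6.13 FPKM, followed by Cd163 at 3.88. The neighbours Mrc1 (5.77 to 6.86) and Vsig4 (5.16 to 7.24) in rat 70 had overlapping intervals.

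On the log2(FPKM + 1) scale, the highest and the lowest rat were over 2-fold apart for 8 of the 9 members above 0, as for 42.5% of all genes. Rat 35 was more than 2-fold above rat 19 for 7 of 9 (11.7% of all genes) and above rat 70 for 6 of 9 (19.9%). Rat 70 was more than 2-fold above rat 19 for Cd163 and Vsig4 (4.84%), and these were the 2 members still more than 2-fold apart when rat 35 was left out. The filter at a mean of 1 FPKM kept 8 of the 10 genes. Cd36 passed through its level in rat 35 and Cd163 through rat 70, so these counts do not support the pattern.

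Between rats 19 and 70, the members and the general macrophage genes went in opposite directions. The members were chosen with these orders known, so nothing is read from the contrast. All 9 members above 0 were higher in rat 70 than in rat 19, as were 41.6% of all genes. For Lyve1, Folr2 and Cd5l the counting interval at the smallest fragment numbers included no difference. Of 10 pan-myeloid genes, which macrophages and microglia share, none was higher in rat 70, and of 9 homeostatic microglia genes none was either. The median difference of rat 70 minus rat 19 was 0.72 for the 9 members, -0.91 for the pan-myeloid genes, -0.75 for the microglia genes and -0.11 for all genes (log2). Rat 35 minus rat 19 was 1.84, 1.60 and 1.59 for the 3 lists and 0.05 for all genes. Other lists went both ways for rat 70 minus rat 19, so a rise in rat 70 was not particular to the members. It was 0.65 for pan-neuronal genes, with 7 of 8 higher in rat 70, 0.17 for blood genes and 0.12 for monocyte and neutrophil genes. It was -0.74 for brain endothelium and -0.26 for fibroblast genes. Among lists nearer in role, it was -0.01 for further perivascular, meningeal and resident macrophage genes, with 3 of 7 higher in rat 70. It was -0.35 for further scavenger receptors (6 of 16 higher) and 0.03 for the mannose receptor family and folate receptors (2 of 3). Whether the members differ from the other lists was not tested.

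**Figure D3:**
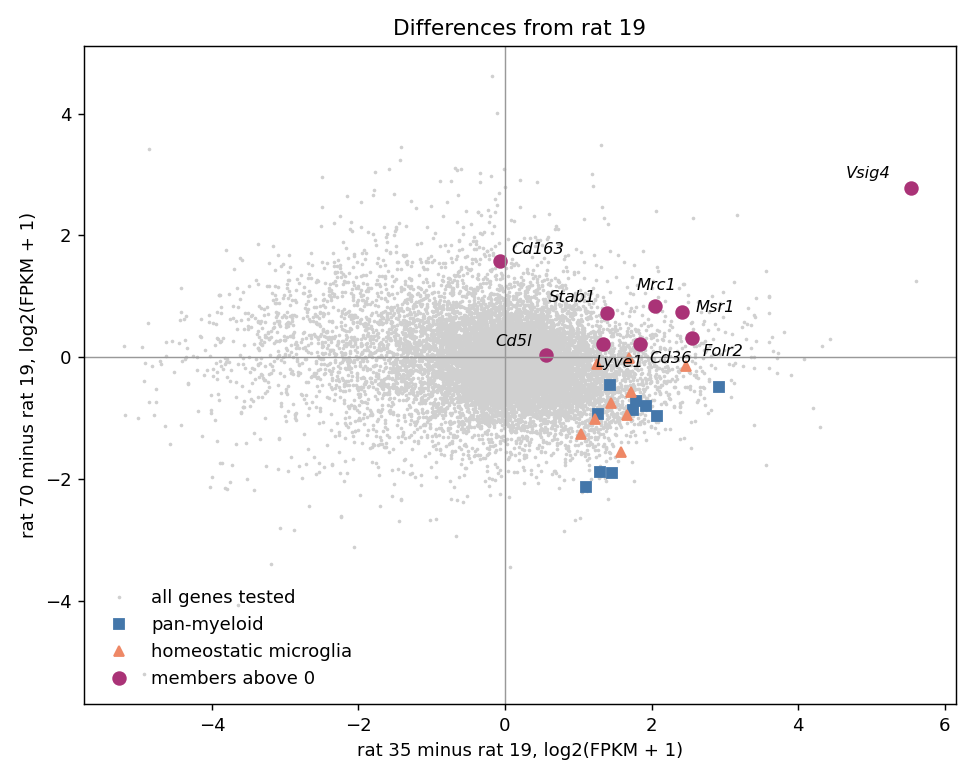
Difference of rat 35 from rat 19 (horizontal) against that of rat 70 from rat 19 (vertical), in log2(FPKM + 1), for all 14134 genes tested, the 9 members above 0, 10 pan-myeloid and 9 homeostatic microglia genes. The members lie above the horizontal line and the genes of both lists below it.

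The pan-myeloid genes had a median of 48.0, 154 and 20.6 FPKM. Among them Cd68, a lysosomal glycoprotein, was at 60.9, 468 and 42.9, the receptor adaptor gene Fcer1g at 308, 846 and 82.1, Aif1, which encodes IBA1, at 46.9, 102 and 9.92, the signalling adaptor gene Tyrobp at 186 and 458 in rats 19 and 35 and lowest in rat 70, and the integrin gene Itgb2 at 27.2, 118 and 13.4. Homeostatic microglia genes followed, with the purine receptor gene P2ry12 at 41.9, 116 and 24.4, Gpr34 at 48.9, 149 and 15.9 and Olfml3 at 13.2, 77.9 and 11.8. Cx3cr1, the fractalkine receptor, was at 47.6, 160 and 31.8, and Sall1, a transcription factor gene of microglia, at 32.1, 67.1 and 12.8. All 19 genes of these lists were highest in rat 35, and none was lowest in rat 19.

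Against the pan-myeloid median of the same rat, 6 members were highest in rat 70 and 3 in rat 35 by the percent of FPKM, and none in rat 19. As a difference in log2(FPKM + 1), all 9 were highest in rat 70, Vsig4 at -5.55, -1.64 and -1.52, Cd36 at -5.47, -5.25 and -3.98 and Cd5l at -5.57, -6.63 and -4.26, so the rank of rats 35 and 70 for these 3 depends on the scale. The median itself was lowest in rat 70, which lifts every gene there. The share of all genes highest in rat 70 on these scales was not computed, so nothing is read from the counts. Mrc1 was at 6.42%, 10.3% and 30.5% of that median, Stab1 at 9.50%, 8.84% and 39.6%, and Cd163 at 1.34%, 0.368% and 18.8%. Folr2 was at 27.9%, 54.2% and 82.0%. Vsig4 was at 0.0948%, 30.8% and 29.7%, with rats 35 and 70 nearly level and rat 19 far below. Cd36 was at 0.222%, 1.92% and 1.42%. All 9 were higher in rat 70 than in rat 19 relative to this median, but so were 97% of all genes, because the pan-myeloid genes themselves were low in rat 70.

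**Figure D4:**
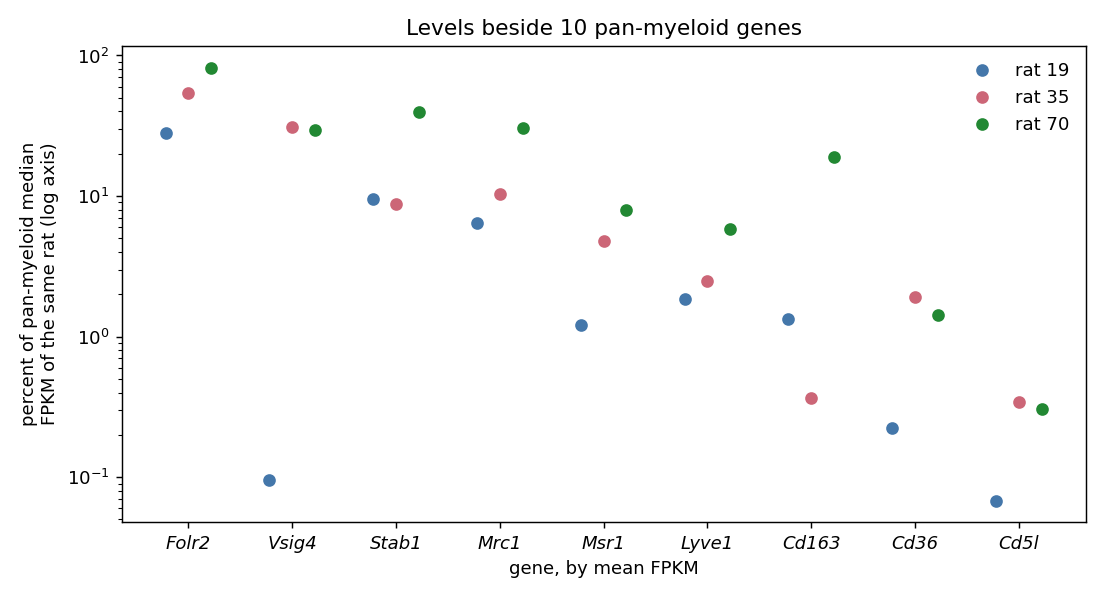
FPKM of each member as a percent (log axis) of the median FPKM of 10 pan-myeloid genes in the same rat. On this percent scale rat 70 is highest for 6 genes, and Vsig4 is near 30% in rats 35 and 70 but at 0.0948% in rat 19. The median is lowest in rat 70, which lifts every gene there.

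Further genes of perivascular, meningeal and resident macrophages mostly shared the members' peak in rat 35, but fewer of them were lowest in rat 19. Of 7 tested, 6 were highest in rat 35 (45.4% of all genes), 4 were lowest in rat 70 (44.2%) and 2 in rat 19 (19.3%). Clec10a, 1 of these 6, was nearly level at 2.08, 2.31 and 2.05 FPKM. Several values of rats 19 and 70 were close, and no counting intervals were made for these genes. Dab2, an endocytic adaptor gene, was at 26.8, 157 and 27.3 FPKM, the chemokine gene Pf4 at 12.5, 87.5 and 13.7, and the transcription factor gene Maf at 8.36, 36.7 and 7.98. Siglec1, the sialoadhesin receptor, was at 3.01, 19.4 and 2.12. F13a1, a coagulation factor gene of border macrophages, was the 1 gene of the list highest in rat 70, at 1.09, 0.996 and 2.90, as Cd163 was. Clec4f, a marker of liver macrophages in rodents, and Cd209a were listed at 0 in every rat, and Timd4 was at 0.442, 0.119 and 0.123.

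Among 16 tested scavenger receptors outside the set, 12 were highest in rat 35 and 6 lowest in rat 19. Clec7a, the beta-glucan receptor dectin-1, was at 4.49, 55.1 and 6.93 FPKM, the lectin-like receptor gene Olr1 at 3.08, 18.3 and 1.57 and the chemokine and scavenger gene Cxcl16 at 23.7, 71.9 and 13.3. Other genes of the list did not follow rat 35: Megf10 was at 9.99, 11.1 and 11.6, Scara3 at 35.3, 27.7 and 27.2, and Ssc5d at 20.7, 19.3 and 4.81.

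Markers of other cells also moved with rat 35, and their part in the member values was not tested. All 6 tested monocyte and neutrophil genes were highest there, with S100a9 at 0.609, 77.4 and 2.83 FPKM and S100a8 at 1.36, 39.2 and 1.32. Summed over the 9 genes on file the level was 37.0, 213 and 24.2, and Mpo was listed at 0 in rats 19 and 35, while Ccr2, the receptor of inflammatory monocytes, was at 0.225 and 1.06 in rats 19 and 35 and listed at 0 in rat 70. All 7 tested fibroblast genes were highest in rat 35 (summed level 268, 2784 and 255), with Col3a1 at 81.7, 1086 and 68.3 and Lum at 36.4, 494 and 38.2. Endothelial genes were highest in rat 35 for 5 of 6 (163, 251 and 116), with the tight junction gene Cldn5 at 80.3, 131 and 63.7 and the angiopoietin receptor gene Tek at 15.6, 31.1 and 7.59. All 8 pan-neuronal genes were lowest in rat 35, with summed levels of 1238, 54.6 and 1850 FPKM, and the synaptic gene Snap25 at 383, 12.2 and 564. The neuronal genes also differed between rats 19 and 70. Of the 8, 7 were higher in rat 70, among them Nefl at 60.8 and 208 FPKM in rats 19 and 70, while Tubb3 was at 152 and 83.0.

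Genes that shape macrophage state were highest in rat 35 for 6 of 7 tested. Tgfb1 was at 31.5, 104 and 17.1 FPKM, Arg1, an arginase of alternatively activated macrophages, at 3.05, 14.3 and 4.03, and Stat6, which carries the interleukin-4 signal, at 14.3, 38.4 and 10.2. Csf1, a growth factor for macrophages, was at 9.99, 19.4 and 7.90, whereas Il34, its neuronal counterpart, was lowest in rat 35 at 23.1, 9.06 and 15.3. Il10 was at 0.089 FPKM in rat 35 and listed at 0 in the others.

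The genes with the profile most like that of Folr2 over the 3 rats, by the distance between deviations of log2(FPKM + 1) from each gene's mean, were Gpx3 (15.3, 90.8 and 19.3 FPKM, distance 0.05), Lama2 (0.07), Loxl2 (0.07), Lamb1 (0.09) and Fstl1 (0.10). With 3 rats many genes come close, and 154 of 12838 named genes were within 0.5. For Vsig4 none was within 0.5. The nearest were S100a9 (distance 1.27), Ltbp2 (0.605, 18.0 and 3.27 FPKM, 1.43), the lysozyme gene Lyz2 (183, 2231 and 369, 1.52), Ccdc3 (1.52) and Lyc2 (1.61).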

How the data were processed

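Motor cortex RNA of 3 rats of 1 group was analysed. The deposited values are FPKM; per the labels' design text, fragments were counted per gene, then normalized by a method not given in the sources used here, and a Perl script of the authors gave FPKM. The submitters' processing notes list HISAT2 2.0.4, StringTie 1.3.0 and Rnor 6.0, with no roles given. Gene coordinates were read from the files.

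The deposited FPKM was used without rescaling, on the log2(FPKM + 1) scale with a pseudocount of 1, and counts over all genes used the 14134 genes whose mean reached 1 FPKM. The FPKM of 1 fragment on 1 kb (0.064261, 0.060751 and 0.062307 in rats 19, 35 and 70, an effective depth of 15560000, 16460000 and 16050000 fragments) was read from the steps between low values of genes counted over their whole span. A gene's counted length was the shortest from 200 to 20000 bp that gave whole fragments in every rat, within 0.002 plus 5e-06 of the fragments. Of 1000 genes checked at a mean of 1 to 20 FPKM, 99.9% had one. Among the members above 0, a single length did so only for Cd36, and 2 to 6 did for the others and 42 for Folr2, so printed fragment numbers are the smallest possible. Intervals were Poisson for levels and exact binomial for ratios. The scripts were tested on simulated data.

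The members and lists were chosen with earlier results of these data known. Named genes were the members, the most abundant and most variable genes of each list, and the 5 nearest profiles to Vsig4 and to the most abundant member; further ones were added for their role, and a few genes that the rule names are not reported here. Where a symbol stood on several rows, the row with the highest mean was used. Replicates are taken as separate animals from their own numbers. Python 3.11.15, numpy 2.4.6, pandas 2.3.3 and scipy 1.17.1 were used. Alternatives were another pseudocount, 3 scalings, 2 filters and leaving out each rat.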

Additional observations from a re-analysis of the deposited data

How the results depend on the processing

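The order of the rats was the same for each of the 9 members above 0 under all 3 other scalings. When all libraries were given the same sum, the median gene moved up by 0.80, 0.85 and 0.96 (log2) in rats 19, 35 and 70, and by 1.33, 1.14 and 1.38 when mitochondrial and hemoglobin genes were left out of the sum. Median-of-ratios scaling moved it by -0.03, -0.07 and 0.08. Among the 8 members that passed the filter, 8 were more than 2-fold apart, 7 highest in rat 35 and 7 lowest in rat 19. At a mean FPKM of 5 or more these counts were 4, 4 and 4, because 4 members are left. Leaving out 1 rat gave 2 to 7 members more than 2-fold apart, and the 2 were obtained without rat 35. With a pseudocount of 0.1 the range between rats widened to 8.35 (log2) for Vsig4, 3.89 for Cd36, 2.58 for Cd163 and 2.24 for Cd5l. For lymphatic endothelium, the median deviation of rat 19 went from -0.32 to 0.35 under the same stricter filter, which leaves fewer genes. Members higher in rat 70 than in rat 19 relative to pan-myeloid genes remained 9 under both other references, the microglia list and Csf1r alone, which were chosen after seeing the data. This count could not have been lower, so it shows no robustness. All 9 were higher in rat 70 as deposited, and both references were lower there: Csf1r was at 94.1 and 68.6 FPKM in rats 19 and 70, and the microglia median at 32.1 and 13.7. No paired analysis was possible because there is 1 group. At the smallest fragment numbers, depth limits the order of rats 19 and 70 for Lyve1, Folr2 and Cd5l, and of rats 19 and 35 for Cd163.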

Other observations

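Genes near Vsig4 on chromosome X were chosen after its values were seen. Only rows at a mean of 1 FPKM or more were used, and most clone and locus names were left out. The nearest such row was Rn60_X_0663.2 (65367912 to 65368639), which has no gene symbol beyond this locus name. It was at 1.68, 16.2 and 1.28 FPKM in rats 19, 35 and 70, highest in rat 35 as Vsig4 was but lowest in rat 70. Msn, which encodes the cytoskeletal linker moesin (65226748 to 65295810), was at 36.5, 113 and 23.1, and Heph, which encodes the copper oxidase hephaestin (65563122 to 65658516), at 2.19, 5.58 and 4.18. The farther row Rn60_X_0677.1 (66836904 to 66837330) was at 15.2, 7.68 and 14.7, lowest in rat 35. All of these rows were above 1 FPKM in rat 19, where Vsig4 was at 0.0455. The filter on the mean favours such rows, so nothing is read from this. Over all named genes, 211 lay within a distance of 0.5 of the profile of Cd163, the nearest being Insig1, a regulator of cholesterol synthesis, at 9.61, 8.89 and 30.2. The related gene Cd163l1 was at 0.137, 0.665 and 0.0379, all below 1 FPKM. Its lowest value was in rat 70, the rat in which Cd163 was highest, but no counting interval was made for it, so its rats are not ordered.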
